A study of Sus scrofa with 6 samples.

Results

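IHH, PTHLH and PTH1R form the feedback loop that sets the pace of chondrocyte maturation in the growth plate. They were measured here by 4 probe sets of a porcine Affymetrix expression array. The members were the probe sets that the platform annotation pairs with one of these 3 symbols, 4 of the 23999 probe sets that are not controls. IHH had 2 probe sets, Ssc.15785.1.A1_at and Ssc.15785.1.S1_at, and PTHLH (Ssc.9991.1.S1_at) and PTH1R (Ssc.14485.1.S1_at) had 1 each. Their NCBI gene IDs in the pig are 397174 for IHH, 396951 for PTHLH and 397675 for PTH1R.

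IHH encodes Indian hedgehog, a secreted signal made by chondrocytes that leave the proliferating columns and begin to enlarge. It acts through hedgehog receptors on neighbouring cells and leads to production of PTHLH, the parathyroid hormone-related protein, near the ends of the bone. PTHLH binds PTH1R, a receptor coupled to G proteins that raises cyclic AMP, on proliferating and prehypertrophic chondrocytes. That signal delays hypertrophy and so limits the number of cells that make IHH. In articular cartilage, which normally does not mineralise, PTHLH is known to help hold chondrocytes in a stable state.

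The arrays covered 6 porcine samples of total RNA, 1 array per condition. They were cartilage taken directly from the growth plate or from the joint surface, called native here, and chondrocytes released from either cartilage with collagenase and cultured to day 10 or day 20 of differentiation. Labelled RNA was made from 100 ng of total RNA with the Affymetrix Two-Cycle amplification. Per the labels, the medium was DMEM/Ham's F12 with fetal bovine serum and antibiotics under 5% oxygen and 5% carbon dioxide, with no further supplement. Strain, age, sex and number of animals, and whether samples were pooled or shared animals, are not given in the sources used here. With 1 array per condition there is no replicate, and a p-value here rests only on how far the arrays depart from additive effects of tissue and stage. Values are linear signal intensities. A floor was set at a signal of 36.1, the 40th percentile of all signals, and signals below it were set to it before log2 was taken. In bulk RNA such as this, fewer cells of a type and less RNA per cell cannot be told apart.

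All 5 chondrocyte markers on the array (COL2A1, ACAN, SOX9, HAPLN1 and COMP) lay above the floor on all 6 arrays, with summed signals between 29008 and 39523. Of 8 endothelial and mural cell markers 3 or 4 lay above it on each array. CDH5, VWF, KDR and TEK lay below it on all 6, while PECAM1 had its highest signal, 277, in native articular cartilage against 52.6 to 118 elsewhere. Of the mural markers, RGS5 had 619 in articular cultures at day 10 and lay below the floor elsewhere, and ACTA2 had 2642 in native articular cartilage against 11456 to 19493 elsewhere. Of 6 blood and macrophage markers 1 or 2 lay above it, with PTPRC, CD163 and TYROBP below it on all 6. HBB lay above it on all 6, at 234 to 610, and CD14 only in growth plate cultures at day 10, at 43.8. Of 6 bone cell markers 1 to 4, and of 5 fat and muscle markers 0 to 3, lay above it. The bone cell marker CTSK was bright on all 6 arrays, while no other marker of that list exceeded 64.6. In native tissue CTSK had 14768 (growth plate) and 17802 (articular), against 5803 to 8225 in the cultures. Its part in differences between cultures and native tissue was not tested. The native articular array was the least similar to the others, with a mean correlation across genes of 0.890 where the other 5 arrays had 0.930 to 0.939.

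IHH, the inducer of the loop, had its highest signal in growth plate chondrocytes at day 10. On probe set Ssc.15785.1.A1_at its signal was 118 in native growth plate cartilage, 448 at day 10 and 82.1 at day 20. In articular samples it was 69.4 in native tissue, 49.9 at day 10 and 48.0 at day 20. Each growth plate signal was thus above each articular one, at the closest 82.1 against 69.4. The articular signals were only 1.33 to 1.92 times the floor. How many of all genes have their tissues separated in this order was not counted. The day 10 growth plate array stood apart, 3.80-fold above native growth plate cartilage and 5.46-fold above day 20. Of 5598 genes, 149 (2.66%) were at least 2-fold higher at day 10 than at both other stages in growth plate samples.

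The other IHH probe set, Ssc.15785.1.S1_at, lay below the floor on 5 of the 6 arrays. Its signals were 6.11, 41.1 and 8.95 in growth plate samples in the order native, day 10, day 20, and 9.53, 24.0 and 6.04 in articular samples. Its single value above the floor was again the day 10 growth plate array, at 1.14 times the floor. These IHH statements therefore rest on the brighter probe set, and which strand each of them reads is not given in the sources used here. Among the 225 pairs of probe sets that share a cluster number, differ in the letters A1 and S1 and carry one symbol, the A1 member was at least 2-fold brighter in 14 and the S1 member in 31.

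PTHLH, the ligand, was low in native cartilage of both tissues and high in both cultures at day 20. Its signal was 74.5 in native growth plate cartilage, 28.7 at day 10 and 856 at day 20. In articular samples it was 35.1 in native tissue, 95.4 at day 10 and 756 at day 20. The day 20 arrays stood far above the other 4, while the native articular array and the day 10 growth plate array lay below the floor. The day 20 signal was 11.5-fold above native in growth plate samples and at least 20.9-fold above native in articular samples. Against day 10 the factor was 7.92 in articular cultures and at least 23.7 in growth plate cultures. PTHLH was 1 of 13 genes (0.232%) at least 4-fold higher at day 20 than at native and day 10 in both tissues.

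Before day 20, PTHLH took different courses in the cultures of the 2 cartilages. Growth plate chondrocytes at day 10 lay below their native tissue by at least 2.06-fold, and articular chondrocytes at day 10 lay above theirs by at least 2.64-fold. Opposite differences of 2-fold or more in these directions were seen in 43 genes (0.768%). All 4 signals behind this lay between 0.795 and 2.64 times the floor, and each was measured on 1 array. By day 20 the articular signal was 88.3% of the growth plate signal.

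PTH1R, the receptor, was high in every growth plate sample and was higher in articular cultures than in native articular cartilage. Its signal was 3431 in native growth plate cartilage, 4864 at day 10 and 3352 at day 20. In articular samples it was 136 in native tissue, 503 at day 10 and 1118 at day 20. The lowest growth plate signal was 3.0-fold above the highest articular one. How many of all genes have their tissues separated like this was not counted. The articular signal was 3.95% of the growth plate signal in native tissue, 10.3% at day 10 and 33.4% at day 20. The narrowing from native tissue to day 20 lay on the articular side. There the signal was 3.71-fold higher at day 10 than in native tissue and 2.22-fold higher at day 20 than at day 10. From day 10 to day 20 a 1.45-fold lower growth plate signal also took part. Of all genes, 58 (1.04%) were at least 2-fold higher at each of these articular steps. Over the same 3 articular arrays the summed signal of 6 fibroblast and synovium markers was 2124, 8375 and 12972. ACTA2, a contractile actin of mural cells and myofibroblasts, had 2642, 14768 and 19493. The native articular array at the base of these steps was also the one least similar to the others, and the part of these measures in the PTH1R values was not tested.

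**Figure D1:**
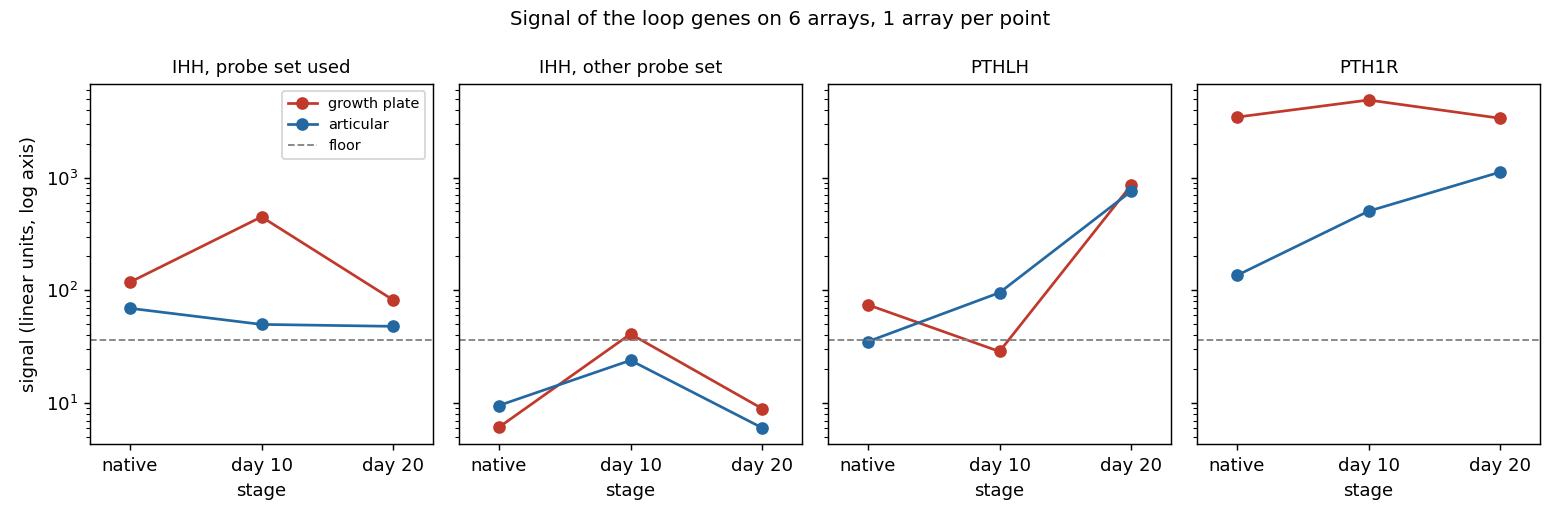
Signal of each probe set (log axis, linear signal units) in native tissue, at day 10 and at day 20, with 1 array per point, growth plate in red, articular in blue and the floor of 36.1 dashed. The day 10 growth plate array is the highest for IHH, both day 20 arrays are the highest for PTHLH, and all 3 growth plate arrays lie above all 3 articular arrays for PTH1R.

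In order of level, PTH1R was highest in growth plate cultures at day 10, then in native growth plate cartilage and growth plate cultures at day 20, and then in articular samples at day 20, at day 10 and in native tissue. The additive model gave a difference between 2 single arrays a standard error of 0.96 (log2) for PTH1R, which includes any difference between tissues in the course over the stages. The 3 growth plate arrays differed from each other by at most 0.54, less than this error. The step from growth plate day 20 to articular day 20, at 1.58, and the articular steps of 1.15 and 1.89 were larger. For IHH the same error was 0.92, above the tissue differences in native tissue (0.77) and at day 20 (0.78) and below that at day 10 (3.17). For PTHLH it was 0.86, above the tissue difference at day 20 (0.18).

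The first comparison asked which of the 3 genes differed between growth plate and articular chondrocytes over the stages. PTH1R was 9.02-fold higher in growth plate on average, with a log2 difference of 3.17 ± 0.55 (SE). IHH was 2.97-fold higher, at 1.57 ± 0.53. PTHLH had a difference of -0.06 ± 0.49, with a 95% interval from -1.28 to 1.16. With limma's moderated test and Benjamini-Hochberg adjustment over 5598 genes, the adjusted p was 0.250 for PTH1R, 0.449 for IHH and 0.973 for PTHLH. None of the 3 was called at an adjusted p under 0.05 and at least 2-fold, where 3 of all genes (0.0536%) were. At an unadjusted p under 0.05, 2 of the 3 passed, against 10.7% of all genes. By size, PTH1R ranked 10 among the 5598 genes and IHH ranked 76.

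In the single pairs of arrays, the growth plate signal of PTH1R was 25.3 times the articular one in native tissue, 9.67 times at day 10 and 3.0 times at day 20. For IHH the ratios were 1.70, 8.98 and 1.71. PTHLH favoured growth plate by at least 2.06-fold in native tissue and by 1.13-fold at day 20, and articular cultures by at least 2.64-fold at day 10. PTH1R was 1 of 31 genes (0.554%) at least 2-fold higher in growth plate in all 3 pairs, and PTH1R and IHH were 2 of 853 (15.2%) higher by any amount in all 3. A native difference of at least 4-fold toward growth plate, as PTH1R had, was seen in 3.45% of genes. At day 10 that size, reached by both PTH1R and IHH, was seen in 0.625%. At day 20 PTH1R was among the 2.84% at least 2-fold higher.

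**Figure D2:**
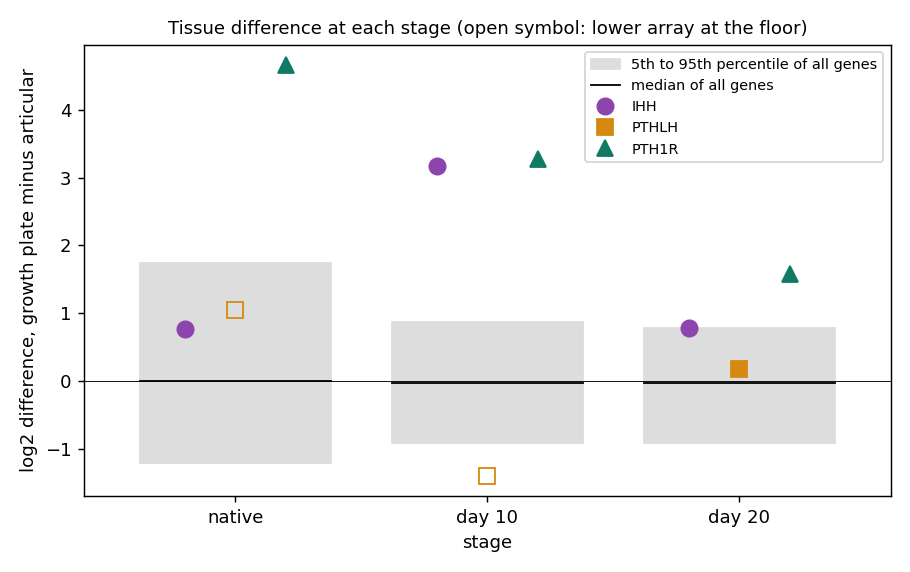
Log2 difference between the growth plate and the articular array at each stage for the 3 genes, over a grey bar from the 5th to the 95th percentile of 5598 genes and a black line at their median. Open symbols are bounds because the lower array lay at the floor. PTH1R lies above the bar at each stage, and IHH lies far above it at day 10 and at its upper edge at day 20.

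When limma was run on the 4 culture arrays only, with 1 residual degree of freedom and 12.3 from the prior, PTH1R and IHH were called. PTH1R had a difference of 2.43 ± 0.30 (adjusted p from limma 0.000411) and IHH one of 1.97 ± 0.46 (adjusted p from limma 0.0319). In that fit 67 of 5473 genes (1.22%) were called higher in growth plate. Leaving out only 1 native array, from growth plate or from articular cartilage, gave these same 2 differences. The other native array was then matched exactly by its own stage term, so neither fit was a separate check. PTH1R was also called in fits without the growth plate or the articular day 20 array, at 3.97, where 0.415% and 0.397% of genes were called higher. Leaving out the growth plate or the articular day 10 array put IHH at 0.77, PTHLH at 0.61 and PTH1R at 3.12, and none of them was called.

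The second comparison set the cultures against native tissue. PTHLH had a fitted log2 difference of 2.07 ± 0.52, with an adjusted p from limma of 0.149. Its native articular and growth plate day 10 signals lay below the floor, so this size depends on the floor, and it was 1.28 with the floor at the 60th percentile. PTH1R had a difference of 1.35 ± 0.59 with an adjusted p from limma of 0.277, and IHH one of 0.10 ± 0.56 with 0.936. None of the 3 genes was called, and neither was any gene of the array (0%). At an unadjusted p under 0.05, 1 of the 3 passed, against 19.3% of all genes. The PTH1R value came from the articular side, since growth plate cultures were 1.42-fold above native tissue at day 10 and 1.02-fold below it at day 20.

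The culture calls changed with single arrays. Without the native growth plate array the PTHLH difference was 2.89 (adjusted p from limma 0.000942) and the PTH1R difference 2.47 (adjusted p from limma 0.000848), and 13.6% of genes were called higher in culture. Native tissue is then the single articular array, assumed to vary like the cultures. Without the native articular array they were 1.24 and 0.24, and neither was called. Without the growth plate day 20 array PTH1R was called at 1.95, with 0.974% of genes called higher, and without the articular day 20 array it was at 0.76 and not called.

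The third comparison set day 20 against day 10 of culture. PTHLH was higher at day 20 in both cultures, with a fitted log2 difference of 3.78 ± 0.61. Because its growth plate day 10 signal lay below the floor, this size depends on the floor, and it was 2.57 with the floor at the 60th percentile. Its adjusted p from limma was 0.148, and no gene had a smaller one. The adjustment gave VEGFA, at 1.92 ± 0.20, the same value, so this value does not place PTHLH first. IHH was lower at day 20, at -1.25 ± 0.65 (adjusted p from limma 0.433), and this lay in the growth plate cultures, with a factor of 5.46 against 1.04 in articular cultures. PTH1R had a difference of 0.31 ± 0.68 (adjusted p from limma 0.881), with growth plate cultures 1.45-fold lower and articular cultures 2.22-fold higher at day 20. None of the 3 was called, nor was any other gene (0%). At an unadjusted p under 0.05, 1 of the 3 passed, against 14.6% of all genes. In the fit to the 4 culture arrays the PTHLH difference was called at 3.78 ± 0.37 (adjusted p from limma 4.41e-05), where 258 genes (4.71%) were called higher at day 20. Without the growth plate native or the articular native array the PTHLH difference was again 3.78. A lone native array does not enter it, so this was no separate check.

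**Figure D3:**
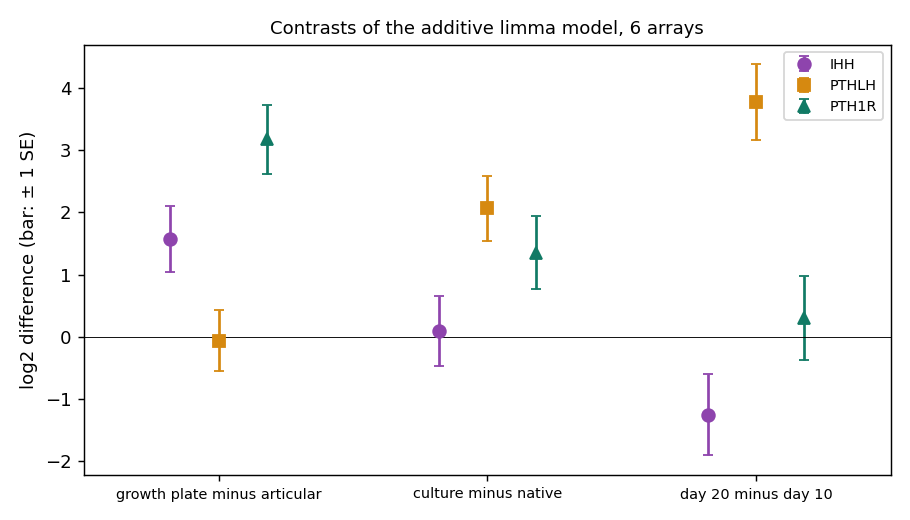
Log2 difference ± 1 SE of each gene in the additive limma model over 6 arrays, for growth plate minus articular, culture minus native, and day 20 minus day 10. PTH1R is highest in the tissue contrast at 3.17 and PTHLH in the day contrast at 3.78, while PTHLH lies near 0 between the tissues.

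Other measures moved with the day 20 arrays on which PTHLH was high. Of 6 fibroblast and synovium markers 4 to 6 lay above the floor on each array. Their summed signal was 12021 and 12972 in growth plate and articular cultures at day 20, against 3567 and 8375 at day 10 and 7539 and 2124 in native tissue. Most of the day 20 sums was THY1, a surface protein of fibroblasts, at 8968 and 10631. Between day 10 and day 20, THY1, COL1A2, COL3A1 and POSTN were at least 2-fold higher in the fit, as were 4.88% of all genes. DPT had a log2 difference of 0.21 and CD55 one of -0.95. POSTN, a matrix protein of fibrous tissue, had growth plate signals of 38.8, 12.9 and 161 and articular signals of 22.1, 84.7 and 949 over native, day 10 and day 20. The ratio of the 3' to the 5' GAPDH control probe sets, a measure of RNA integrity, was 0.995 and 1.15 at day 20 against 1.26 to 1.52 on the other arrays. The same ratio for actin went the other way, at 5.55 and 8.75 at day 20 against 3.27 to 4.94 on the other arrays. The part of these measures in the PTHLH result was not tested. The hybridisation controls of the growth plate day 10 array, on which IHH was highest, lay 0.33 (log2) below the mean of the arrays, and their part was not tested either.

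The other genes of the loop were taken from lists of general knowledge, written with earlier results of these data known. Their shares beside those of all genes are therefore descriptive. Of 24 hedgehog pathway genes 4 were named on the array. GLI1, a transcription factor that hedgehog signalling induces, lay below the floor on all 6 arrays, with signals between 4.08 and 25.9. SUFU, which restrains the GLI factors, had a tissue difference of -0.17 ± 0.30. EXT1, an enzyme of the heparan sulphate that hedgehog proteins bind, had one of -0.55 ± 0.29. The receptor genes PTCH1 and SMO, the inhibitor HHIP, and GLI2 and GLI3 were not among the 4 named genes and so were not analysed.

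Of 41 gene symbols listed for PTH1R signalling, 21 were named on the array and 18 passed the filter, PTHLH and PTH1R included. The median tissue difference of those 18 was -0.11 (log2), against -0.04 over all genes. None was called between tissues, for culture or between days, where 0.0536%, 0% and 0% of all genes were. PTH, the circulating hormone that also binds PTH1R, lay below the floor on all 6 arrays, with a highest signal of 23.1. GNAS, the stimulatory G protein subunit, lay below it on its 1 named probe set, with a highest signal of 27.8. SLC9A3R1, a scaffold protein that binds the tail of PTH1R, had growth plate signals of 160, 138 and 88.6 and articular signals of 647, 226 and 250.3. Each articular signal was above each growth plate signal, the opposite order to PTH1R, and the difference was -1.41 ± 0.34. The share of all genes separated in this order was not counted.

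Apart from PTH1R, SLC9A3R1 and RGS2, the genes of this list differed by less than 2-fold between tissues on average over the stages. Single pairs of PTHLH, NR4A2, PDE4B and SIK3 differed by more. PRKACA and PRKACB, catalytic subunits of protein kinase A, had tissue differences of -0.19 ± 0.30 and 0.20 ± 0.27. SIK3, a kinase that protein kinase A restrains, had one of 0.75 ± 0.33, with 1070 in native growth plate against 363 in native articular cartilage. RGS2, which shortens G protein signals, had 4016 in native articular cartilage and between 234 and 403 on the other arrays, with a difference of -1.31 ± 0.66. NR4A2, a nuclear receptor that cyclic AMP induces, had growth plate signals of 144, 62.8 and 297 and articular signals of 956, 32.4 and 174. PDE4B, which breaks down cyclic AMP, had signals of 717, 164 and 875 and of 2109, 445 and 803. These last 3 were highest in native articular cartilage, the array least similar to the rest, and its part in their values was not tested. RAMP2, a membrane protein that can pair with PTH1R, was at -1.16 ± 0.34 in culture relative to native tissue.

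Of 20 genes of prehypertrophic and hypertrophic chondrocytes 12 were named and 11 passed the filter, with a median tissue difference of 1.65 against -0.04 over all genes. COL10A1, the collagen of hypertrophic cartilage, and ALPL, the phosphatase of mineralisation, were called, against 0.0536% of all genes, and 7 of the 11 were at least 2-fold higher in growth plate, against 3.0% of all genes. COL10A1 lay below the floor on all 3 articular arrays and ALPL on those of native tissue and day 10. IBSP and MMP13, a collagenase of hypertrophic cartilage, were with these the 4 genes at least 2-fold higher in growth plate in all 3 pairs. FOXA2, a transcription factor of hypertrophic differentiation, had growth plate signals of 1244, 2079 and 437 and articular signals of 18.1, 399 and 253. DLX5, another factor of maturing chondrocytes, had signals of 746, 1164 and 521 in the first and 101, 443 and 325 in the second tissue. PHOSPHO1, a phosphatase of early mineralisation, had 487, 1684 and 306 and 171, 309 and 208. FOXA2, DLX5 and PHOSPHO1, like IHH, were highest on the day 10 growth plate array. In articular samples IBSP, a protein of mineralising matrix, had signals of 53.2, 309 and 5958 over the stages at which PTH1R had 136, 503 and 1118. Other genes of the list took other courses there, with 19241, 10658 and 4955 for SPP1, a protein of mineralised matrix, and 39.8, 27.0 and 30.5 for MMP13.

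Of 20 genes of the resting and columnar zones 7 were named and 6 passed the filter, with a median tissue difference of -0.13 and none at least 2-fold apart. Over all genes, 3.0% were at least 2-fold higher in growth plate and 2.22% at least 2-fold lower. SOX9, the transcription factor of cartilage identity, had 982 in native articular cartilage and between 76.8 and 175 on the other arrays. Of 27 genes for other signals that act on the loop 15 were named and 14 passed, with a median of -0.20. Between tissues 0 were called, against 0.0536% of all genes. TGFB2, a growth factor placed between hedgehog signals and PTHLH in cartilage, was the 1 gene of this list at least 2-fold higher in growth plate in all 3 pairs, at 1.71 ± 0.20 (adjusted p from limma 0.123). BMP7, a bone morphogenetic protein, had 534 in native articular cartilage, 107 and 97.0 in native and day 10 growth plate samples, and signals below the floor on the other 3 arrays. SMAD3, which carries TGF-beta signals, had 693 in native articular cartilage and between 76.5 and 188 elsewhere. FGFR3 was not among the genes named on the array and so was not analysed.

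**Figure D4:**
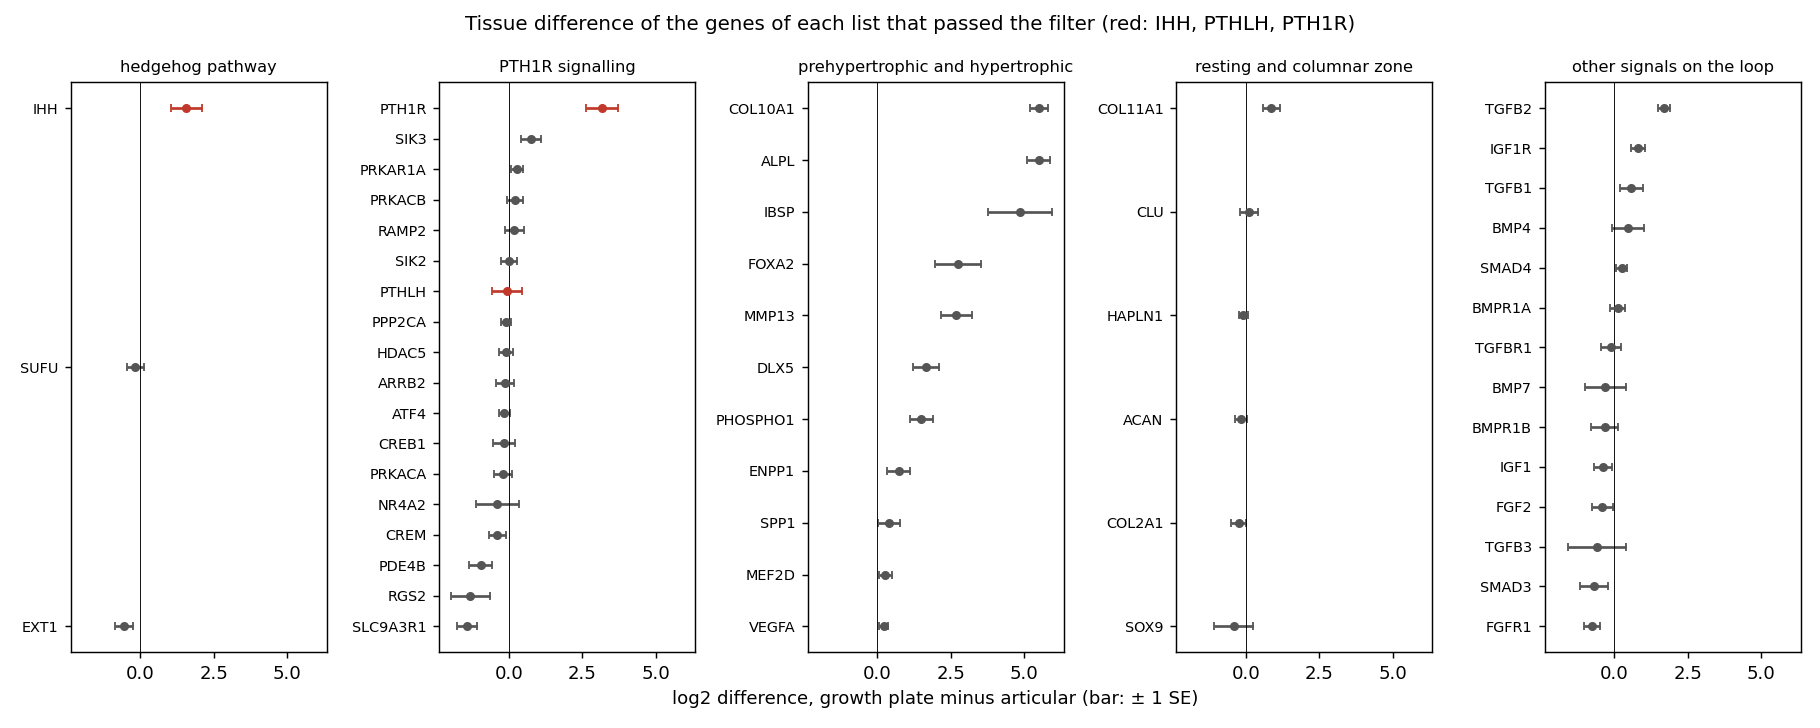
Log2 difference between growth plate and articular samples ± 1 SE from the additive limma model, for the genes of 5 lists that passed the filter, with the 3 loop genes in red. PTH1R, at 3.17, stands apart from the other PTH1R signalling genes, which lie between -1.41 and 0.75, and the hypertrophic genes all lie to the right of 0.

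Over the 6 arrays the 3 genes did not share a course. Pearson's r of the log2 signals was 0.61 between IHH and PTH1R, -0.50 between IHH and PTHLH and 0.25 between PTHLH and PTH1R, as a description over 6 arrays that share 2 tissues and 3 stages. Among 3174 other genes with a range of at least 2-fold, the 5 most like PTHLH were CD86, CA9, ZDHHC9, NAPRT and GAMT, with r between 0.982 and 0.989. CA9, a carbonic anhydrase induced in low oxygen, had growth plate signals of 250.3, 119 and 1309 and articular signals of 100.2, 195 and 988. Like PTHLH it was lowest on the native articular and the day 10 growth plate arrays and highest at day 20. CD86, a costimulatory membrane protein, had 44.7, 35.7 and 155 and 3.81, 66.1 and 179.

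The 5 genes most like PTH1R were EFHD1, CPEB2, FAM46A, LRRC1 and ANTXR2, with r between 0.973 and 0.983. EFHD1, a calcium-binding protein of mitochondria, had growth plate signals of 1523, 2851 and 1657 and articular signals of 34.4, 182 and 927. LRRC1 had 2587, 1775 and 1400 and 152, 329 and 784. For IHH they were XIRP2, GPD2, ATP6V1H, ALAS1 and CELF2, with r between 0.948 and 0.970. ALAS1, the first enzyme of haem synthesis, had growth plate signals of 602, 1224 and 695 and articular signals of 559, 466 and 538, with the day 10 growth plate array again apart from the rest. Of the 3174 genes compared, 4 (0.126%) had r above 0.95 with IHH, 18 (0.567%) with PTHLH and 19 (0.599%) with PTH1R. How many would reach this by chance over 6 arrays was not tested.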

How the data were processed

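The authors deposited linear signal intensity values. The submitters' processing notes name GCOS 1.4. Scaling target and detection calls are not given in the sources used here. Trimmed means of the 6 arrays agreed within a factor of 1.00005, so the values were not normalized again. Leaving out 124 control probe sets, signals were floored at the 40th percentile and log2 was taken. Symbols came from the platform annotation, updated through gene IDs where RefSeq held them (9961 of 10069 probe sets with 1 symbol). Each of 6765 genes was represented by its brightest probe set, and 5598 genes above the floor on at least 2 arrays were kept.

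An additive model of tissue and stage was fitted across all genes with limma 3.58.1 (R 4.3.3), with an intensity trend, 2 residual degrees of freedom and 3.78 from the prior. Fits to fewer arrays applied the filter to the arrays kept. The model was tested on simulated data. Calls needed an adjusted p (Benjamini-Hochberg) under 0.05 and a fold of at least 2. Named were the 3 members, 10 fixed loop genes where measured, list genes at least 2-fold apart in all tissue pairs or among the 4 of largest change, and the 5 genes most like each member. Genes in sentences outside this rule were chosen after their values were seen. The members and lists were chosen with earlier results of these data known. The number of arrays limits the precision.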

Additional observations from a re-analysis of the deposited data

Results flagged for a closer look

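In 4 cases a member moved in opposite directions in the 2 tissues over the same step, each on 1 array per tissue and stage, so that the difference could not be tested. From native tissue to day 10, IHH was 1.93 (log2) higher in growth plate and 0.48 lower in articular samples, a difference of 2.40. Over that step PTHLH was lower by a factor of at least 2.06 in growth plate samples and higher by one of at least 2.64 in articular samples, a difference of -2.45 (log2) with 1 array on each side at the floor. From native tissue to day 20, PTH1R was 0.03 lower in growth plate, which is close to no difference, and 3.04 higher in articular samples, a difference of -3.08. From day 10 to day 20 it was 0.54 lower in growth plate and 1.15 higher in articular samples, a difference of -1.69. Opposite directions by any amount were common among the 5598 genes, at 34.6%, 38.3% and 27.5% for day 10 over native, day 20 over native and day 20 over day 10.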

How the results depend on the processing

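The tissue difference of PTH1R kept its sign under all 17 alternatives run, between 2.43 and 3.97 (log2). That of IHH kept its sign under 16, between 0.77 and 1.97. Many of these were not separate checks. The filters, the 25th percentile floor, the intensity trend and keeping every probe set left PTH1R at 3.17 and IHH at 1.57. Leaving out the growth plate or the articular array of a stage gave the same value. With the floor at the 60th percentile IHH did not pass the filter, and PTHLH did not pass the filter on all 6 arrays. With the mean of its probe sets IHH was at 0.82. The tissue difference of PTHLH turned to 0.060 with the floor at the 60th percentile. That floor also gave PTHLH 1.28 for culture and 2.57 between days. In the 4 cultured arrays IHH at 1.97 and PTH1R at 2.43 between tissues, and PTHLH at 3.78 between days, passed the threshold. Over fits that left out 1 array each, the tissue difference ranged from 0.77 to 1.97 for IHH, -0.61 to 0.61 for PTHLH (0.61 without the growth plate or the articular day 10 array) and 2.43 to 3.97 for PTH1R. The culture difference ranged from -0.50 to 0.70 for IHH, 1.24 to 2.89 for PTHLH and 0.24 to 2.47 for PTH1R, and the day difference from -2.45 to -0.05, 2.77 to 4.78 and -0.88 to 1.5. Counts of called genes between tissues were 3 over all arrays, 6 with quantile normalization, the 60th percentile floor or a pseudocount of 16, 8 with median centring, 5 with the 25th percentile floor, 0 with no filter or a filter on all 6 arrays, 1 without the intensity trend, 152 in the cultured arrays and 2 to 147 without 1 array. Median centring moved the median of all genes between tissues to -0.12. For culture they were 0, then 9 with median centring, 5 with the 60th percentile floor, 4 with the pseudocount, 3 with all 6 arrays above the floor, 2 with all probe sets kept and 7 to 1165 without 1 array. Between days they were 0, then 509 in the cultured arrays and 0 to 507 without 1 array. The causes were not tested. Each condition has 1 array, and a lone array of a stage is assumed to vary like the rest. No paired analysis was possible because the labels give no replicate numbers. Signals within 2-fold of the floor, as for IHH in articular samples, limit what can be read from small ratios.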
